A study of Mus musculus with 4 samples.

Results

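The genes described here are a chemokine and its receptor pair: Cxcl12, the ligand, Cxcr4, its signalling receptor, and Ackr3, an atypical receptor. They are 3 of the 27998 genes counted, chosen by name and not by a threshold, with earlier results of these data known. Their values were followed across 4 cell classes at each stage. The study sorted CD31+/CD45- cells, the gate used for endothelial cells, from C57Bl6J mouse hearts: embryos of E12 (37 animals) and E15 (48), pups of P2 (21) and adults of 8 weeks (6). The labels name no allele or drug for these groups. The animals of a stage were pooled, sorted cells were stored frozen in DMSO, and 1 droplet library was made per stage. Thawed E12 and E15 cells passed a dead cell removal kit, whereas P2 and adult cells were sorted again, so that stage and handling cannot be told apart.

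Cxcl12 is secreted and is held on heparan sulphate at cell surfaces. Cxcr4 couples to inhibitory G proteins and guides migrating cells towards the ligand, while Ackr3 binds Cxcl12 without classical G protein signalling and takes it up, which shapes the ligand available to Cxcr4. In the developing heart the system is known for its part in the growth and maturation of coronary arteries. In mouse genome build GRCm38, Cxcl12 (ENSMUSG00000061353) lies on chromosome 6 from 117168535 to 117181367 on the plus strand. Cxcr4 (ENSMUSG00000045382) lies on chromosome 1 from 128588199 to 128592293 on the minus strand, and Ackr3 (ENSMUSG00000044337) on chromosome 1 from 90203980 to 90216751 on the plus strand. The annotation gives 3 distinct coding 3' ends for Cxcl12, and the counts are per gene, so its isoforms were not told apart.

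A level is given as CPM, unique molecular identifiers (UMIs) of the gene per 1000000 UMIs of all genes, summed over the cells of a class. From E12 to the adult, 5257, 5379, 5510 and 3994 cells were kept, with median depths of 1209, 973, 4420.5 and 1472.5 UMIs. Endocardial cells had more UMIs of Npr3 and Tmem108 than of Fabp4, Cldn5 and Aplnr together (1552, 1872, 1053 and 65 cells). Coronary cells had at least 2 UMIs of Fabp4, Cldn5 and Aplnr and more of these than of the endocardial genes (102, 1092, 4262 and 3851 cells). Cells met the artery rule with at least 2 UMIs of Glul, Alpl and Nebl (14, 9, 834 and 807 cells), and non-endothelial cells had no UMI of Pecam1, Cdh5 or Egfl7 (2807, 1722, 13 and 117 cells). Intervals are exact 95% intervals. They cover counting error only, since cells of 1 library are not replicates, and no test between conditions was possible.

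The gate left cells without detected endothelial genes. Pecam1, which encodes CD31, had a UMI in 14.1%, 22.4%, 90.8% and 65.0% of kept cells from E12 to the adult, and Ptprc, which encodes CD45, in 8, 9, 0 and 5 cells. The artery name held against other markers after birth. Artery genes that the rule did not use, such as Gja5 and Sox17, summed to 1303 CPM in coronary cells of the artery rule at P2 against 421 CPM in other coronary cells, and to 1464 against 495 CPM in the adult. At E12 none of the 14 cells of the artery rule was a coronary cell and 9 lacked every endothelial UMI. Their macrophage genes summed to 2825 CPM, so they are not called arterial below. At E15 only 2 coronary cells met the rule. At P2, 307 cells met it with exactly 2 UMIs and 865 missed it with 1, in the adult 289 and 649. The E12 endocardial class held 552 cells (35.6%) without an endothelial UMI, the E15 class 504 (26.9%). At P2, 727 of the 4262 coronary cells carried an Npr3 or Tmem108 UMI and 271 carried at least 2 UMIs of lymphatic genes. The non-endothelial class was thus mixed in the embryo. Of its 2807 cells at E12, 19.7% also met the endocardial rule. Of its 1722 cells at E15, 29.3% met the endocardial rule and 172 (9.99%) the coronary rule. After birth the non-endothelial class did not hold, since 11 of its 13 cells at P2 and 88 of its 117 adult cells also met the coronary rule. Pairs of libraries shared 25 to 60 cell barcodes.

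The cells that held most Cxcl12 differed between the embryonic and the postnatal libraries. Cells without endothelial UMIs held 80.7% of the Cxcl12 UMIs at E12, where they were 53.4% of the cells, and 60.7% at E15, where they were 32.0%. At P2 they were 0.236% of the cells and held none of its 6029 UMIs. There, coronary cells of the artery rule made up 13.7% of the cells and held 85.6% of the Cxcl12 UMIs. In the adult these cells held 39.1% and other coronary cells held 59.7%. How many non-endothelial cells a library holds is set partly by the sort, so these shares describe the libraries and not the heart. The class asks for no endothelial UMI, so its size also depends on depth. Median depths were 1209 and 973 UMIs at E12 and E15 and 4420.5 at P2, and the part of depth was not tested.

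**Figure D1:**
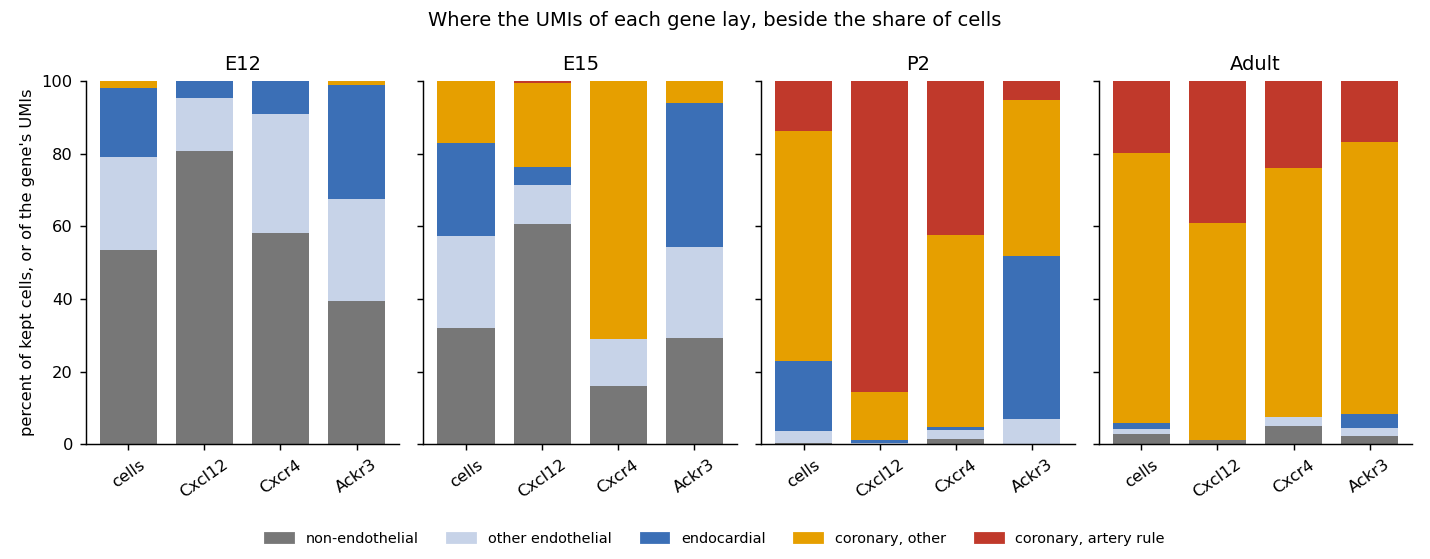
Share of kept cells (first bar of each panel) and of the UMIs of Cxcl12, Cxcr4 and Ackr3 (percent, linear axis) in 5 non-overlapping cell groups of the 4 libraries. Cxcl12 lay mostly in non-endothelial cells at E12 and E15 (80.7% and 60.7%) and in artery-rule coronary cells at P2 (85.6%), while 45.0% of the Ackr3 UMIs at P2 lay in endocardial cells.

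By level, Cxcl12 reached 426 CPM in non-endothelial cells at E12 (95% interval 405 to 447), 139 CPM at E15, and 562 CPM in the 117 adult cells of the class, of which 88 also met the coronary rule. Endocardial cells had 143, 27.3, 9.83 and 59.4 CPM from E12 to the adult. Coronary cells had 10.1, 92.4, 290.2 and 1706 CPM, so they were the lowest of these 3 classes at E12 and the highest at P2 and in the adult. The 13 non-endothelial cells at P2 had no Cxcl12 UMI, which allows up to 44.8 CPM at 3 counts. Shares of cells followed the same order. From E12 to the adult, a Cxcl12 UMI was found in 1.96%, 6.14%, 17.4% and 69.7% of coronary cells, and with every cell thinned to 500 UMIs in 0% (which allows up to 2.94%), 3.60%, 7.25% and 45.5%. At E15 no UMI was found in the 27 non-endothelial cells led by macrophage genes, which allows a share of up to 11.1%. At E12, 7 of 57 non-endothelial cells led by erythroid genes (12.3%, 5.08% to 23.7%, median 1696 UMIs) had one. Their top cell held 6 of the 13 UMIs, and the part of free RNA in this share was not tested. The 1.96% of coronary cells (median 1924 UMIs) lay below this interval and the 7.73% of endocardial cells (median 1242.5) within it. A comparison with so few cells cannot settle whether either class was a source at E12. E12 barcodes of fewer than 100 UMIs, which are mostly empty droplets, had 292.5 CPM of Cxcl12, 15.1 CPM of Cxcr4 and 93.4 CPM of Ackr3.

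**Figure D2:**
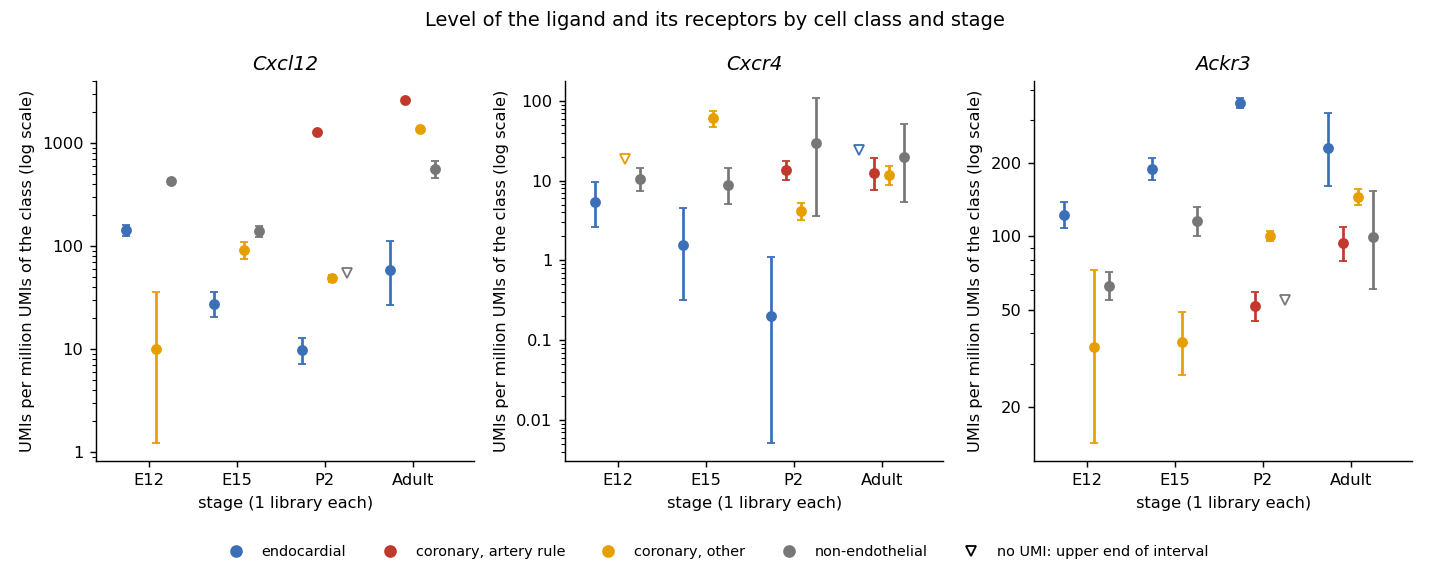
Level of Cxcl12, Cxcr4 and Ackr3 (CPM, log axis, each panel with its own range) in endocardial, artery-rule coronary, other coronary and non-endothelial cells at each stage; points are sums over the cells of 1 library, bars are exact 95% counting intervals, open triangles mark classes without a UMI, and classes under 10 cells are left out. Cxcl12 was highest in non-endothelial cells at E12 (426 CPM) and in artery-rule coronary cells at P2 and in the adult (1284 and 2647 CPM), whereas Ackr3 was highest in endocardial cells at all 4 stages.

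Embryonic Cxcl12 in cells without an endothelial UMI was unevenly spread. Non-endothelial cells were split by the marker list with the most UMIs in each cell, at least 3 being required. At E12 the 206 cells led by mural genes, those of pericytes and smooth muscle, had 1200 CPM (1077 to 1333), and 62.6% of them had a UMI. The 1209 cells led by mesenchymal collagen genes had 535.5 CPM (502 to 571) and 29.5% with a UMI. The 196 cells led by cushion genes, those of the valve primordia, had 19.1 CPM and only 4 positive cells. At E15 the order was the same for the first pair, with 504 CPM in 25 mural-gene cells and 247 CPM in 573 mesenchymal-gene cells, although few mural-gene cells were held. In the adult the corresponding levels were 512 CPM in 24 cells and 268 CPM in 27 cells, below the 1387 CPM of other coronary cells. Of the 117 adult non-endothelial cells, 88 also met the coronary rule, so these groups were not separate from coronary cells. The 60 adult cells that no list led had 1169 CPM (898 to 1495), and 46.7% of them had a UMI.

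Cxcr4 did not follow Cxcl12 among these cells. It had no UMI in the 206 E12 cells led by mural genes, which allows up to 10.4 CPM at 3 counts, 10.4 CPM in mesenchymal-gene cells from 18 UMIs, and 44.6 CPM (24.4 to 74.9) in cushion-gene cells from 14 UMIs, beside 15.1 CPM (7.54 to 27.0) in near-empty barcodes. Among endothelial cells of the same library, those with at least 2 UMIs of valve genes had 51.5 CPM of Cxcr4 (24.7 to 94.7) against 4.61 CPM in those with none. At E15 the 27 cells led by macrophage genes had 182 CPM of Cxcr4, but from 5 UMIs in 3 cells. Ackr3 had 20.8 CPM in mural-gene cells at E12, 54.5 CPM in mesenchymal-gene cells and 44.6 CPM in cushion-gene cells, all under the 93.4 CPM of near-empty barcodes, and 93.2 CPM in the cells that no list led. A near-empty level is not a floor for cells, since E12 coronary cells had 10.1 CPM of Cxcl12 beside 292.5 CPM in near-empty barcodes. The share of free RNA in kept cells was not measured, and its part in these E12 levels was not tested. At E15 the cells that no list led had 155 CPM of Ackr3 (130.2 to 182). The 504 non-endothelial cells of E15 that also met the endocardial rule had 176 CPM (141 to 218), and their part in that level was not tested.

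**Figure D3:**
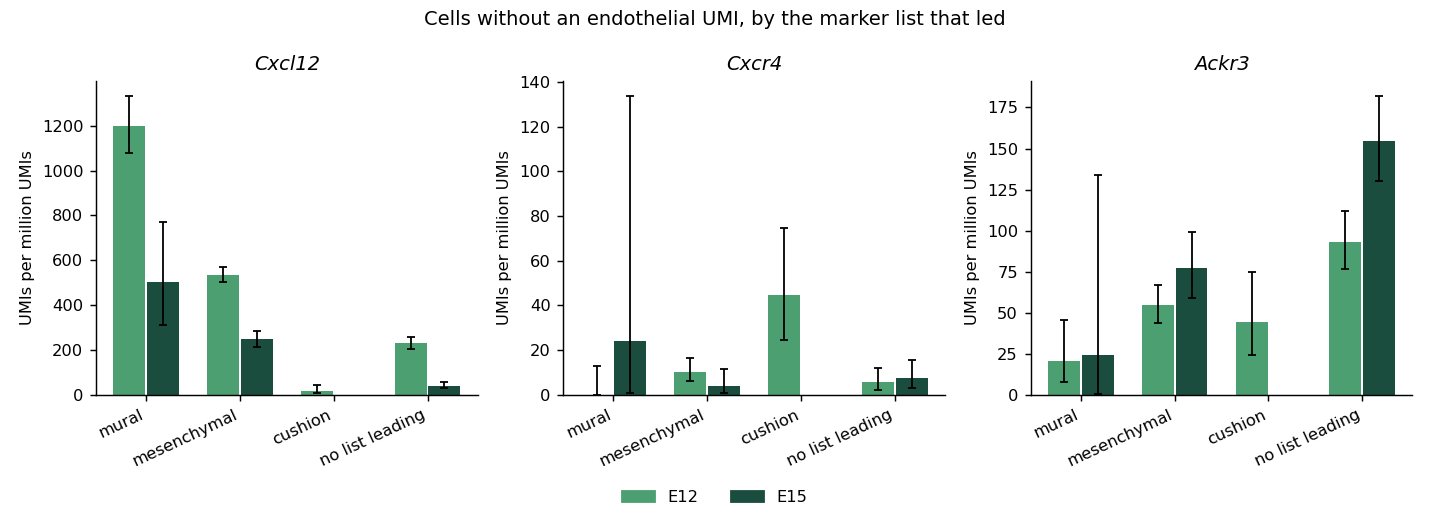
Cxcl12, Cxcr4 and Ackr3 (CPM, linear axes from 0, each panel with its own range) in cells without an endothelial UMI at E12 (light) and E15 (dark), by the marker list that led in the cell; bars are sums over 1 library with exact 95% counting intervals, and groups under 20 cells are left out. Cxcl12 at E12 was 1200 CPM in mural-gene cells and 19.1 CPM in cushion-gene cells, and Cxcr4 ran the other way, with no UMI and 44.6 CPM.

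Non-endothelial cells had 3.69 times the Cxcl12 level of all endothelial cells at E12 (95% interval 3.30 to 4.14) and 3.42 times at E15 (2.79 to 4.19). In the adult, where 88 of the 117 non-endothelial cells met the coronary rule, the ratio was 0.339 (0.279 to 0.408). For Cxcr4 the ratio was 1.23 at E12 (0.738 to 2.08) and 0.421 at E15 (0.230 to 0.724). For Ackr3 it was 0.572 at E12 (0.483 to 0.677) and 0.914 at E15 (0.774 to 1.08). The ligand was thus higher in embryonic cells without an endothelial UMI beyond counting error at both stages. These cells included some that met the endocardial or coronary rule. Neither receptor was higher in them beyond counting error.

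The 143 CPM of Cxcl12 in the E12 endocardial class rested mainly on cells that lacked endothelial UMIs. The 552 such cells had 280 CPM (243 to 321) and held 203 of the 294 UMIs, and their mesenchymal genes summed to 2164 CPM. The 1000 endocardial cells with an endothelial UMI had 68.2 CPM of Cxcl12 (54.9 to 83.7) and 562 CPM of mesenchymal genes. Within the class, the 120 cells with a Cxcl12 UMI had 2286 CPM of the large artery list (Fbln5, Eln and Gkn3) against 146 CPM in the rest. Their artery list was lower, 0.685 times (0.483 to 0.948), so an arterial identity is not read from this. Of the endocardial genes that the rule did not use, these cells had 183 against 488 CPM. At E15 the same split gave 68.4 CPM in cells without and 13.7 CPM in cells with an endothelial UMI. The part of mesenchymal cells in the endocardial level was not tested further.

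Between coronary and endocardial cells the direction for Cxcl12 differed between E12 and the later stages. The coronary level was 0.0705 times the endocardial one at E12 (0.00849 to 0.257), from 2 coronary UMIs, with both levels under that of near-empty barcodes. The E15 coronary level was 3.39 times the endocardial one (2.43 to 4.78), the P2 level 29.5 times (22.3 to 40.0) and the adult level 28.7 times (15.1 to 62.9), where the endocardial side held 9 UMIs in 65 cells. When only cells with an endothelial UMI were used, the Cxcl12 ratio was 0.154 at E12 and 6.38 at E15, and that of Ackr3 was 0.226 at E12. The E12 Cxcl12 ratio, at 0 when thinned, was then within counting error. Cxcr4 was higher in coronary cells at E15, 39.1 times (12.9 to 194, 77 against 3 UMIs), and at P2, 29.8 times (5.26 to 1188, 123 against 1 UMI), of which the P2 difference was within counting error when thinned. At E12 the 102 coronary cells had no Cxcr4 UMI, which allows up to 15.1 CPM, above the endocardial 5.34 CPM, so no difference was detectable at this depth. In the adult the endocardial cells had none, which allows up to 19.8 CPM beside the coronary 11.9 CPM.

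Ackr3 was lower in coronary than in endocardial cells, against the direction of both other genes at E15 and P2, of Cxcl12 alone in the adult and of neither at E12. From E12 to the adult, its coronary level was 0.287 (0.114 to 0.599), 0.195 (0.141 to 0.265), 0.259 (0.242 to 0.276) and 0.573 times (0.409 to 0.828) the endocardial level. With cells thinned to 500 UMIs the E12 and adult ratios, 0.600 and 0.462, were no longer beyond counting error. Without coronary cells that carried an Npr3 or Tmem108 UMI, the P2 ratio was 0.132. Endocardial cells had 123, 189, 352 and 231 CPM of Ackr3 from E12 to the adult, and coronary cells had 35.2, 36.8, 91.0 and 132 CPM. The E12 endocardial interval, 108 to 139 CPM, overlapped that of near-empty barcodes, 72.5 to 118 CPM. At P2 an Ackr3 UMI was found in 57.8% of endocardial cells (median 4534 UMIs per cell) and in 17.4% of coronary cells (median 4419.5), and at 500 UMIs in 13.9% and 3.47%. Without cells that carried endocardial or lymphatic UMIs the coronary share was 9.84%. At E12 the coronary share was 5.88%, beside 7.02% of the 57 erythroid-gene cells (1.95% to 17.0%). With 4 Ackr3 UMIs, that group is too small to set a background share, so background was not told apart.

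Across all genes, a pair of groups was compared wherever a gene had at least 20 UMIs in both together, and a gene was counted when its levels differed at least 2-fold either way. Between coronary and endocardial cells this held for 23.6% (of 8184 genes), 19.9%, 22.1% and 26.9% from E12 to the adult. Of the members it held for Cxcl12 and Ackr3 at E12, where Cxcr4 had too few UMIs, for all 3 at E15 and P2, and for Cxcl12 alone in the adult. Ordered by ratio with the class genes left out, Cxcr4 was gene 10 of 8980 at E15 from the coronary side. Cxcl12 was gene 30 of 12395 at P2 and gene 15 of 10368 in the adult. Ackr3 was gene 227 from the endocardial side at E15.

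Within coronary cells, Cxcl12 separated the artery rule from the rest at P2. It reached 1284 CPM in the 758 coronary cells of the rule and 48.6 CPM in the 3504 others, a ratio of 26.4 (24.5 to 28.5). A UMI was found in 57.7% against 8.70% of cells, and in 31.4% against 2.03% at 500 UMIs. Only 6.58% of 12030 genes differed at least 2-fold in this comparison. Cxcl12 was gene 3 of 12019 by ratio with the class genes left out, and its place ran from 1 to 15 over the class rules tried. The members were chosen with earlier results of these data known, so these places are a description and not independent support. Glul gave 91.0% of the UMIs that met the artery rule at P2. The rule without Glul took cells with at least 1 UMI of Alpl and Nebl, so its threshold was also lower. The ratio was then 13.6 (12.9 to 14.4), between 186 and 4076 cells.

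In the adult the same comparison gave a far smaller ratio. Cxcl12 was 2647 CPM in the 794 artery-rule cells and 1387 CPM in the 3057 others, a ratio of 1.91 (1.84 to 1.98), with a UMI in 84.6% and 65.8% of cells. Erythroid genes were 27.9 and 704 CPM in these groups of 1 library. The source of these UMIs and their part in the ratio were not tested. None of the 3 members passed 2-fold in the adult, where 9.02% of 10291 genes did. The level in other coronary cells was 28.5 times that of P2 (26.5 to 30.7), whereas the artery-rule level was 2.06 times that of P2 (1.98 to 2.15). At E15 the 2 artery-rule coronary cells held 2 Cxcl12 UMIs, both in 1 cell, and that comparison is not read further.

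**Figure D4:**
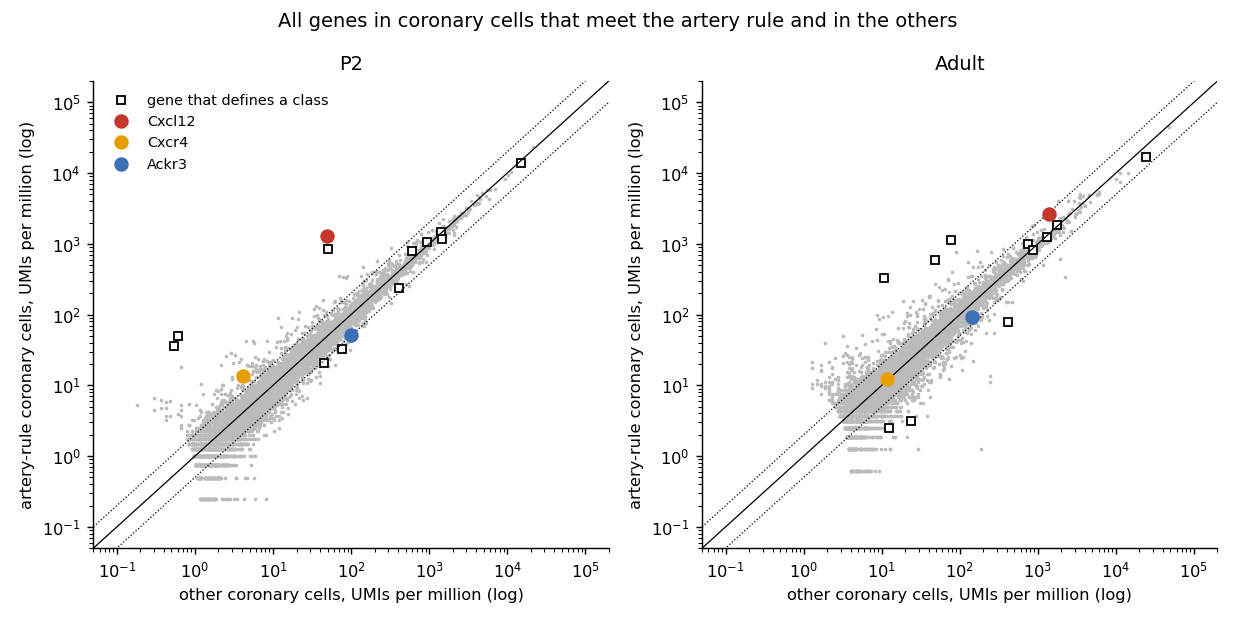
All genes with at least 20 UMIs and a UMI on both sides in artery-rule and other coronary cells at P2 and in the adult (CPM, both axes log); the solid line marks equal levels, dotted lines 2-fold differences, and open squares the genes that define the classes. Cxcl12 stood at 1284 against 48.6 CPM at P2 and at 2647 against 1387 CPM in the adult, Cxcr4 at 13.4 against 4.17 CPM at P2, and Ackr3 below equality at both stages.

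Cxcr4 was also higher under the artery rule at P2, at 13.4 against 4.17 CPM, a ratio of 3.22 (2.21 to 4.66) from 54 and 69 UMIs. It was gene 85 of 12019. With cells thinned to 500 UMIs the ratio was 3.99 and no longer beyond counting error. In the adult it was 12.4 against 11.8 CPM, a ratio of 1.05 (0.599 to 1.78). Ackr3 was lower under the rule, with 51.7 against 101 CPM at P2, a ratio of 0.515 (0.443 to 0.595), and 93.5 against 145 CPM in the adult, a ratio of 0.643 (0.536 to 0.768). Thinning took the P2 ratio to 0.938, within counting error. At P2 the Ackr3 ratio was 0.387 without coronary cells that carried an Npr3 or Tmem108 UMI.

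Over the stages, Cxcr4 in coronary cells stood out at E15 with 60.3 CPM in 62 positive cells of 1092. No Cxcr4 UMI was found in coronary cells at E12. With that level set at 3 counts (15.1 CPM), the E15 level was 4.0-fold higher. The exact interval of the ratio without that setting, from 77 against 0 UMIs, had a lower end of 3.17. At P2 Cxcr4 in coronary cells was 5.98 CPM, 0.0993 times the E15 level (0.0741 to 0.134), which placed it 20 from the lowest of 12110 genes. The adult level of 11.9 CPM was 1.99 times that of P2 (1.48 to 2.67). The share of coronary cells with a UMI was 5.68%, 2.51% and 1.82% at E15, P2 and in the adult, and 2.34%, 0.328% and 0.701% at 500 UMIs. In endocardial cells it was 0.160% at E15 and 0.0950% at P2.

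Cxcl12 in coronary cells was 9.19 times higher at E15 than at E12 (2.49 to 76.8), 3.14 times higher at P2 than at E15 (2.62 to 3.80) and 5.88 times higher in the adult than at P2 (5.70 to 6.07). In the part that did not meet the artery rule the P2 level was lower than that of E15, 0.535 times (0.440 to 0.655). Ackr3 in coronary cells was 1.05 times the E12 level at E15 (0.470 to 2.74), 2.47 times higher at P2 than at E15 (1.85 to 3.38) and 1.45 times higher in the adult than at P2 (1.34 to 1.58). Without cells that carried endocardial or lymphatic UMIs, coronary Ackr3 was 36.6 CPM at E15, 36.9 CPM at P2 and 130 CPM in the adult. This filter depends on depth, and coronary medians were 1070.5 UMIs at E15 and 4419.5 at P2. The part of those cells in the difference between E15 and P2 was not tested. Of all genes in coronary cells, 17.8% were 2-fold apart between E12 and E15, 23.6% between E15 and P2 and 24.8% between P2 and the adult. Of the members, 2, 3 and 1 were.

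In endocardial cells Cxcl12 was 0.191 times the E12 level at E15 (0.140 to 0.257), 0.361 times the E15 level at P2 (0.240 to 0.542) and 6.04 times the P2 level in the adult (2.61 to 12.4, from 9 adult UMIs). Ackr3 was 1.54 times higher at E15 than at E12 (1.31 to 1.81), 1.86 times higher at P2 than at E15 (1.66 to 2.09), and 0.657 times the P2 level in the adult (0.456 to 0.917). Cxcr4 had 11, 3, 1 and 0 UMIs and was too rare for a comparison. Of all genes in endocardial cells, 9.41%, 18.9% and 22% were 2-fold apart at these steps, and of the members Cxcl12 alone at each. Adult coronary cells also carried 533 CPM of erythroid genes, and P2 and adult libraries were sorted again after thawing. The part of either in the stage differences was not tested.

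Ligand and receptor were read in the same coronary cells. At E15, Cxcl12 was 181 CPM in the 62 cells with a Cxcr4 UMI and 86.6 CPM in the 1030 without, a ratio of 2.09 (1.11 to 3.67) from 14 UMIs in the first group, and within counting error when thinned (1.49) or without the top cell of each group (1.79). At P2 it was 1014 CPM in 107 cells against 271 CPM in 4155, a ratio of 3.74 (3.41 to 4.09). Within the artery rule this ratio was 1.62 (1.47 to 1.78), and in other coronary cells 5.41 (4.18 to 6.89). In the adult it was 1.24 (1.08 to 1.41), but 1.16 (0.968 to 1.38) within the artery rule and 1.10 (0.898 to 1.33) in other coronary cells, so neither group alone showed it beyond counting error. Median depths of cells with and without the receptor UMI differed little, at 4493 and 4419 UMIs at P2.

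Cxcl12 levels were lower in coronary cells with an Ackr3 UMI at P2 and in the adult. At P2 the 741 coronary cells with an Ackr3 UMI had 143 CPM of Cxcl12 against 327 CPM in the other 3521, a ratio of 0.439 (0.402 to 0.478), and in the adult the ratio was 0.731 (0.694 to 0.770). Of these 741 cells, 329 were left without those that carried endocardial or lymphatic UMIs. The P2 ratio kept its side when either kind was left out alone, and with both left out it was not computed. The share of cells with a Cxcl12 UMI was 12.1% against 18.5% at P2, but 69.2% against 69.8% in the adult, where cells with Ackr3 were deeper (medians 1817.5 and 1402 UMIs). Within the artery rule the ratios were 0.666 (0.606 to 0.730) and 0.767 (0.704 to 0.834), although more adult artery-rule cells with Ackr3 than without carried Cxcl12, 89.2% and 83.7%. At E15 it was 0.775 (0.208 to 2.04). At E15, 9 of 62 coronary cells with a Cxcr4 UMI also had Ackr3 (14.5%) against 3.30% of the others, a ratio of levels of 4.20 (1.86 to 8.61) from 10 UMIs. With cells thinned to 500 UMIs this ratio was 0. At P2, 24 of 107 coronary cells with Cxcr4 also had Ackr3 (22.4% against 17.3% of the others), a ratio of 0.727 (0.504 to 1.01), and in the adult 18 of 70 (25.7% against 16.8%), a ratio of 1.47 (0.914 to 2.24).

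The coronary cells that carried each gene also differed in markers that no class rule used. Cells with a Cxcl12 UMI had 4.04 times the level of the 7 artery genes at P2 (3.90 to 4.19), 3.73 times at E15 (3.06 to 4.53) and 1.29 times in the adult (1.20 to 1.38). Each of the 7 was higher at E15 and P2, but only 4 of the 7 in the adult. The tip cell list of cells with a Cxcl12 UMI, which includes Apln and Esm1, was 1.61 times higher at E15 (1.30 to 1.98). It was 1.51 times higher at P2 (1.43 to 1.60) and 1.18 times in the adult (1.05 to 1.33). Of its 6 genes 4, 3 and 3 were higher. The vein genes of Cxcl12-bearing cells, such as Nr2f2 and Ephb4, were 0.459 times as high in the adult (0.419 to 0.503) and their dividing-cell genes were 0.282, 0.479 and 0.321 times as high from E15 to the adult. The large artery genes were 2.27 times higher at P2 (2.21 to 2.34), with all 3 higher, but 0.817 times as high in the adult (0.747 to 0.894). Read the other way, adult coronary cells with at least 2 UMIs of vein genes had 838 CPM of Cxcl12 (770 to 911) against 1845 CPM in those with none. Those with mature capillary genes had 1794 CPM against 306 CPM, and P2 cells with dividing-cell genes had 64.7 CPM against 385 CPM. At P2 the vein split was smaller, with 270 against 292 CPM. Cxcl12-bearing cells there had 0.776 times the vein genes (0.726 to 0.830) and 1.16 times the mature capillary genes (1.13 to 1.18). Without coronary cells that carried endocardial or lymphatic UMIs these ratios were 1.05 (0.968 to 1.14) and 1.01 (0.992 to 1.04). At E15 the capillary split gave 50.3 CPM (27.5 to 84.4) against 99.9 CPM (76.6 to 128).

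Cells with a Cxcr4 UMI had higher sums of the artery and tip cell lists. The artery list was 3.46 times higher at E15 (2.80 to 4.25), 2.48 times at P2 (2.30 to 2.67) and 1.52 times in the adult (1.26 to 1.81). The tip cell list, which holds Apln, Esm1 and Angpt2, was 3.57 times higher at E15 (3.03 to 4.19), 2.61 times at P2 and 2.69 times in the adult. Of the 6 tip cell genes 4, 5 and 4 were higher. Large artery genes were 0.0803 times as high at E15 (0.0218 to 0.206), 0.980 times at P2 (0.895 to 1.07) and 1.15 times in the adult (0.837 to 1.53). At P2 the large artery ratio was 1.13 (1.03 to 1.24) without coronary cells that carried endocardial or lymphatic UMIs. Lymphatic genes had no UMI in the 62 cells at E15 and were 0.0297 times as high at P2 (0.0166 to 0.0489). In the adult they were 1.17 times as high (0.558 to 2.17), from 10 UMIs in the 70 cells with Cxcr4. The 69 of these cells without endocardial or lymphatic UMIs had none. Split by the tip cell list instead, E15 coronary cells with at least 2 of its UMIs had 170 CPM of Cxcr4 (126 to 225) and 17.6% positive cells, against 17.8 CPM (9.46 to 30.4) and 1.50% in those with none, whose median depths were 1292 and 1013 UMIs. In the adult the same split gave 26.1 against 9.44 CPM. E15 coronary cells with dividing-cell genes had 17.1 CPM (4.65 to 43.7) against 82.6 CPM in those without, so Cxcr4 at E15 was higher in tip-gene cells and lower in dividing-gene cells.

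At E15 the tip cell list of cells with an Ackr3 UMI was 1.54 times higher (1.18 to 1.98), with 3 of its 6 genes higher. At P2 it was 1.01 times as high (0.946 to 1.07), or 1.44 times (1.33 to 1.55) without cells that carried endocardial or lymphatic UMIs. In the adult it was 1.13 times as high (0.999 to 1.28). Cells with an Ackr3 UMI also had higher large artery genes at E15, 1.48 times, and vein genes, 1.74 times. Their endocardial and mature capillary lists there were within counting error. At P2 their endocardial genes were 5.08 times higher (4.82 to 5.36), valve genes 4.86 times, large artery genes 2.94 times, lymphatic genes 2.36 times and vein genes 2.05 times, whereas mature capillary genes such as Car4 and Rgcc were 0.341 times as high (0.330 to 0.351). Without coronary cells that carried an Npr3 or Tmem108 UMI or at least 2 lymphatic UMIs, which left 329 cells with Ackr3 and 3015 without, the endocardial ratio was 4.51 (4.06 to 5.00), the valve ratio 3.80, the large artery ratio 5.21, the vein ratio 1.97 and the capillary ratio 0.579. In the adult the vein list was 1.39 times higher (1.26 to 1.54), the endocardial list 1.88 times and the capillary list 0.953 times (0.930 to 0.978). Endothelial cells with at least 2 UMIs of lymphatic genes had 304 CPM of Ackr3 at P2 in 455 cells and 298 CPM in the adult in 26 cells, against 117 and 131 CPM in those with none. In these lymphatic-gene cells Cxcr4 had 1 UMI at P2 and none in the adult. P2 endothelial cells with at least 2 UMIs of valve genes had 350.5 CPM of Ackr3 (336 to 365) against 64.1 CPM in those with none. Within the P2 endocardial class, the 609 cells with an Ackr3 UMI had more of the dividing-cell genes than the other 444, 3.03 times (2.29 to 4.08), the mature capillary genes, 1.36 times (1.17 to 1.58), the large artery genes, 1.29 times (1.22 to 1.37), and the endocardial genes, 1.20 times (1.14 to 1.26). Their median depth was 4880 against 4018.5 UMIs, and its part was not tested.

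**Figure D5:**
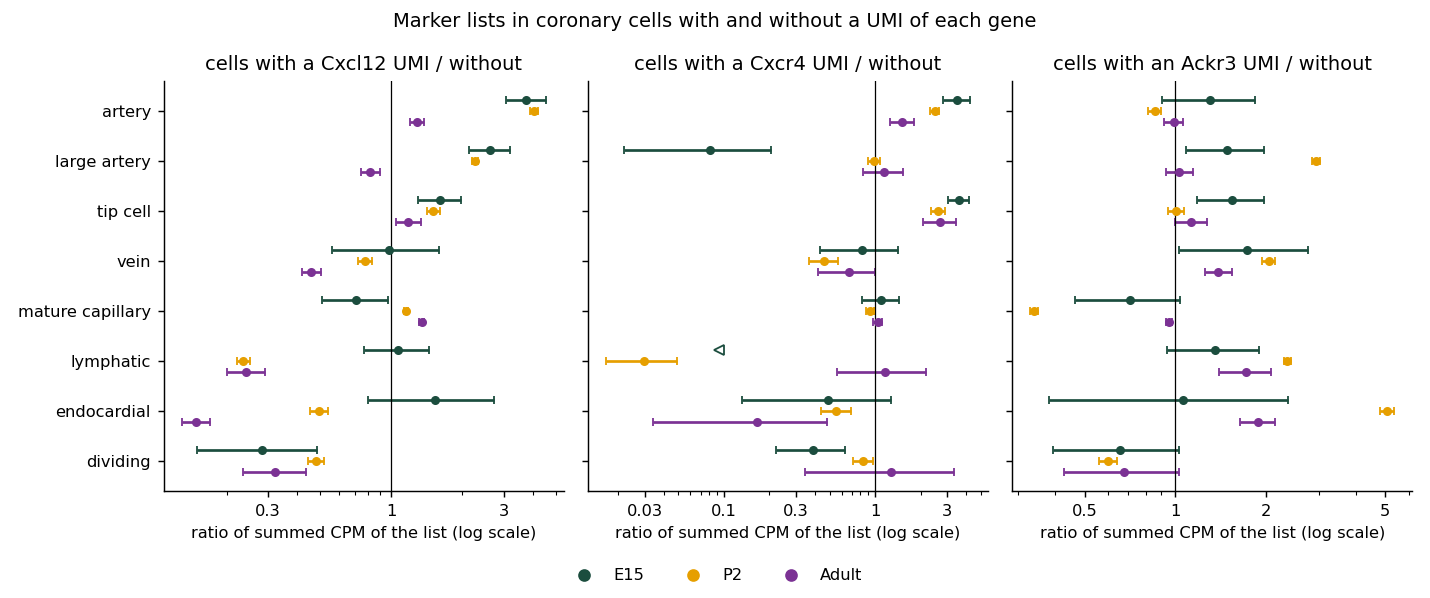
Ratio of the summed level of each marker list in coronary cells with a UMI of Cxcl12, Cxcr4 or Ackr3 to that in coronary cells without (log axes, each panel with its own range) at E15, P2 and in the adult, 1 library each; genes that define the classes are left out of the lists, bars are exact 95% counting intervals, and the open triangle marks the upper end where no UMI was found. The artery list lay above 1 for Cxcl12 and Cxcr4 at all 3 stages, and the vein and lymphatic lists lay above 1 for Ackr3 at P2 and in the adult.

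The wider pathway was read from a list of 35 genes, with at least 20 UMIs required in a comparison. Between coronary and endocardial cells at E15, 24 were measured, of which 4 were at least 2-fold higher in coronary cells and 6 lower, with a median ratio of 1.18, beside 19.9% of all genes that passed 2-fold either way. Adm, the peptide adrenomedullin that Ackr3 also takes up, was 24.4 times higher (7.85 to 122), Rgs16, a brake on G protein signalling, 5.33 times and Gnai2, an inhibitory G protein subunit, 2.15 times. Mif, a further ligand of Cxcr4, was 2.13 times higher. Lower were Dpp4, the peptidase that inactivates Cxcl12, at 0.0200 times (0.000501 to 0.115), the transcription factors Foxc1 at 0.181 and Foxc2 at 0.397, and Calcrl, the adrenomedullin receptor, at 0.423 times.

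At P2, 30 of the 35 were measured, with 5 higher and 6 lower in coronary cells, and Foxc1, Foxc2, Dpp4 and Adm kept these directions, at 0.192, 0.259, 0.106 and 8.29 times. At P2 22.1% of all genes passed. At E12, 1 of 19 was higher and 4 were lower, of which Foxc1 alone was lower beyond counting error, beside 23.6% of all genes. In the adult 4 of 26 were higher and 6 lower, beside 26.9% of all genes. Under the artery rule at P2, where 6.58% of all genes passed, 280 higher and 512 lower, no gene of the 30 was 2-fold higher and 6 were lower, among them Dpp4 at 0.259 times (0.146 to 0.429) and Arrb1, a receptor adaptor, at 0.428 times. In the adult 3 of 26 were higher and 3 lower, beside 9.02% of all genes. Cd74, the Mif receptor chain that also serves antigen presentation, was 5.63 times higher (4.79 to 6.64), and macrophage genes there were 184 against 25.6 CPM. The part of such cells was not tested.

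The genes most like each member were found by Pearson's correlation of log2(CPM + 10) over the sums of UMIs by stage and class, among 10123 genes with at least 200 UMIs. Only 15 of the 16 planned sums had cells. For Cxcl12 these were Id1 (r = 0.801), Id3, Lmo1, 8430408G22Rik and Efr3b, and for Cxcr4 Ier5l (r = 0.815), Chst1, Eps8l1, Kcnj8 and Sept8. For Ackr3 they were Tpp1 (r = 0.960), Zkscan3, Atp2b4, Rbbp9 and Wdr13. With the 13 sums of at least 50 cells, Lmo1 and Efr3b stayed for Cxcl12 (r = 0.906 and 0.879), Ier5l for Cxcr4 (r = 0.836) and none for Ackr3, where Blvrb led (r = 0.899). The sums share libraries and depth, and the correlations are a description.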

How the data were processed

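The authors mapped 10x Genomics 3' libraries with Cell Ranger 2.2 to mm10 and deposited raw UMI counts for each gene and barcode. Barcodes of at least 452 UMIs were taken at E12, whose file holds all barcodes, and every deposited barcode otherwise. Cells were kept within the study's limits: upper limits of 4000, 3000, 12000 and 5000 UMIs and of 1500, 1300, 4000 and 2000 genes from E12 to the adult, and of 10% (embryonic) or 20% (postnatal) mitochondrial UMIs. Doublets were scored with Scrublet (scanpy 1.11.5, 0.8% expected per 1000 cells), and scores over 0.15, found for 351, 574, 254 and 103 called barcodes, were left out. Kept UMIs summed to 6986534, 5741691, 26326536 and 6718888.

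UMIs were summed per class and divided by the total. Levels have exact Poisson, shares exact binomial and ratios exact conditional binomial 95% intervals (scipy 1.17.1). A count of 0 was given an upper limit of 3 counts. Ratios over all genes used genes of at least 20 UMIs. A side at 0 was set at 3 counts, and the ratio at 1 where that turned its direction. The script was tested on simulated data. Shares were also taken with cells thinned to 500 UMIs, which left out 70, 350, 0 and 0 cells. The members and lists were chosen with earlier results of these data known. Named genes are the members, the pathway list and the 5 genes most like each member. Alternatives were every called barcode, no doublet removal, stricter classes, a threshold of 3 UMIs, thinned cells, mean CPM of cells, leaving out the top cell, 1000 UMIs at E12, and the artery rule without Glul. The rule without Glul asked for at least 1 UMI of Alpl and Nebl. Alternatives that narrow the coronary class, and the likeness over sums of at least 50 cells, were added after seeing the data.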

Additional observations from a re-analysis of the deposited data

Results flagged for a closer look

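Cxcl12 in coronary cells was 0.0705 times the endocardial level at E12 and 3.39, 29.5 and 28.7 times at E15, P2 and in the adult. The direction thus differed between the stages, although the E12 ratio rested on 2 coronary UMIs. Cxcl12 in non-endothelial cells was 3.69 and 3.42 times the endothelial level at E12 and E15, and 0.339 times in the adult. Of the 117 adult non-endothelial cells, 88 also met the coronary rule. In coronary cells outside the artery rule, Ackr3 in cells with a Cxcr4 UMI was 4.19 times the level of cells without at E15 and 0.635 times at P2. Over all coronary cells the E15 ratio was 0 with cells thinned to 500 UMIs. With 1 library per stage, none of these differences between stages was tested.

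The 156803 E12 barcodes with fewer than 100 UMIs, which hold mostly free RNA and enter no comparison, had 292.5 CPM of Cxcl12 (95% interval 254.5 to 334.5), 15.1 CPM of Cxcr4 (7.54 to 27.0) and 93.4 CPM of Ackr3 (72.5 to 118). The Cxcl12 level there was above that of E12 endocardial and coronary cells (143 and 10.1 CPM) and below that of non-endothelial cells (426 CPM).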

How the results depend on the processing

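Each comparison was counted by the number of stages whose ratio had an interval above 1. With cells thinned to 500 UMIs that number went from 2 to 1 for Cxcr4 in coronary against endocardial cells, from 0 to 1 for Ackr3 in non-endothelial against endothelial cells, from 1 to 0 for Cxcr4 under the artery rule, and from 1 to 0 for Ackr3 in cells with a Cxcr4 UMI. With mean CPM of cells it was 2 for the last and 2, from 0, for Cxcr4 in non-endothelial against endothelial cells. With 10 UMIs required of postnatal coronary cells it was 2 for Ackr3 in cells with a Cxcr4 UMI. The other counts stayed within 1.5 times. Thinning leaves fewer UMIs and calls the classes again, so it also changes which cells are compared.

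Of 302 ratios beyond counting error under 12 alternatives, 287 kept their side and 15 lost it, 9 of these by thinning. The direction turned in 3: Ackr3 in non-endothelial against endothelial cells at P2 (1.31 when thinned), Cxcl12 under the artery rule at E15 (0 without the top cell) and Ackr3 in cells with a Cxcr4 UMI at E15 (0 when thinned). The last rests on 10 UMIs and is not firm. No paired analysis was possible because each stage has 1 library and no test was made. Depth limits Cxcr4 in E12 coronary and adult endocardial cells, which held no UMI of it.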
